A study of Mus musculus with 12 samples.

Results

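The 10 elastic fibre and lysyl oxidase genes, which build or cross-link elastic fibres, were followed through mouse hearts under angiotensin II (AngII) and gastrodin: Eln, Fbn1, Fbln1, Fbln2, Fbln5, Lox, Loxl1, Loxl2, Mfap4 and Mfap5. They were taken by symbol, and all 10 of 10 were present among the 27504 genes of the count matrix and among the 16723 genes that passed the filter on low counts. RNA came from hearts of wild-type C57BL/6 mice at postnatal day 45. Cardiac hypertrophy was modelled in the AngII groups with that peptide hormone, which constricts vessels, and the sham groups had the control operation. Each arm was given vehicle (0 mg/kg/day) or gastrodin, a phenolic glucoside of an orchid, at 5 or 50 mg/kg/day by the stomach for 7 days. The sources used here do not give the AngII dose, the sex of the mice or whether each library was 1 animal. Each of the 6 groups had 2 libraries, numbered 1 and 2 (AngII vehicle), 3 and 4 (AngII 5 mg), 5 and 6 (AngII 50 mg), 7 and 8 (sham vehicle), 9 and 10 (sham 5 mg) and 11 and 12 (sham 50 mg). The p-values therefore measure the spread between these libraries, which may be technical. The tissue was whole heart, so fewer cells of a type and less RNA per cell cannot be told apart.

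Elastic fibres give vessel walls, valves and the heart's connective tissue their recoil. Tropoelastin (Eln) is laid onto a scaffold of fibrillin microfibrils (Fbn1) that carries microfibril-associated glycoproteins (Mfap4, Mfap5), and fibulins (Fbln1, Fbln2, Fbln5) link the parts to each other and to cells. Lysyl oxidases (Lox, Loxl1, Loxl2) are copper enzymes that oxidise lysines so that elastin and collagen chains can be cross-linked. In the heart these genes are mostly read in fibroblasts and in the muscle cells of vessel walls.

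Total counts were 63.5 to 78.6 M per library, but genes outside the mitochondrial genome, its nuclear copies and ribosomal RNA loci received only 6.34 to 20.3% of them. That share was 7.49 to 20.3% in AngII (median 11.8%) and 6.34 to 10.4% in sham (median 7.85%), and its part in the results was examined only by adding it to the fit. Ribosomal RNA took 11.1% of counts in sham 50 mg library 12 and 0.983% in sham 5 mg library 10, against at most 0.201% elsewhere. On the first principal component (30.0% of the variance) AngII 5 mg library 4 stood at 12.2, nearer to the sham libraries (37.3 to 78.6) than to the other AngII libraries (-91.3 to -40.3). The cardiomyocyte list was high in every library, with a summed level of 4165 to 9484 CPM (counts scaled by TMM to a common library total), and none of its 10 genes was at 0.

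The start regions of 3 fibre genes are printed. Averaged over the 3 doses, Fbn1 and Fbln1 were called lower in AngII below, while Fbln2 did not pass the test. Whether these genes differed from each other was not tested, nor was any link of the windows to expression. Each run of 300 bases holds 250 bases before and 50 after the start of a RefSeq transcript on GRCm38.p6, on the gene's strand, and capitals mark GC boxes (GGGCGG on either strand). The Fbn1 window is chr2:125506389-125506688 (minus strand), the Fbln1 window chr15:85205699-85205998 (plus) and the Fbln2 window chr6:91212514-91212813 (plus).
Fbn1: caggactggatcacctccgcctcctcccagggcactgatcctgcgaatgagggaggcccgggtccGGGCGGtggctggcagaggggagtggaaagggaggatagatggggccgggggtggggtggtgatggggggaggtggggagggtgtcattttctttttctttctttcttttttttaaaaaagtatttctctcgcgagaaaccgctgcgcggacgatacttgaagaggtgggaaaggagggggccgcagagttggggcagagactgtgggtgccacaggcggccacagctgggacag
Fbln1: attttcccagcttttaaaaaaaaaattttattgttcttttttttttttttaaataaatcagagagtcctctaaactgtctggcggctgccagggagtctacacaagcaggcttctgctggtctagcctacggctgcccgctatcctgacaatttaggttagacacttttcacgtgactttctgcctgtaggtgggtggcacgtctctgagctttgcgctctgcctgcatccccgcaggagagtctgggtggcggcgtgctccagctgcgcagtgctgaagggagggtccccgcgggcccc
Fbln2: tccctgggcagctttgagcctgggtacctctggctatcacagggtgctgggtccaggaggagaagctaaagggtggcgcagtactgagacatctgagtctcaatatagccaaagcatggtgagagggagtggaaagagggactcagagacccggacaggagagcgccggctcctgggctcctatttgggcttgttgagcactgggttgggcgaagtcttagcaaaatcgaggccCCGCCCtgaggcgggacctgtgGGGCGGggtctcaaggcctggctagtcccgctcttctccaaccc
The search covered the GC box, the TATA box (TATAAA), an AP-1 element (TGANTCA), a TEAD element (GGAATG), a palindromic SMAD element (GTCTAGAC) and the CArG box, each on both strands. Fbn1 had 1 GC box, Fbln2 had 2, and the Fbln1 window held none of these letters. Windows of 4 members were searched, and Lox was left out of the search. Of these 4, Fbln5 (chr12:101819070-101819369, minus strand) also had 2 GC boxes. No other searched element was found in the 4 windows. GC boxes were in 35.7% of the 32851 windows of that length, TATA boxes in 13.6%, AP-1 elements in 7.81%, TEAD elements in 14.7%, SMAD palindromes in 0.213% and CArG boxes in 1.63%. GC content was 60.3% in the Fbn1 and Fbln2 windows, 51.7% in Fbln1 and 65.7% in Fbln5, with a median of 52.7% over all windows.

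Per transcript length the 10 genes covered a wide range. On the deposited TPM scale, which divides by transcript length, the mean level over 12 libraries was highest for Mfap5 (14.9 ± 8.42, SD, n = 12), followed by Eln (4.26 ± 2.86), Fbln2 (3.04 ± 2.15), Fbln1 (2.15 ± 0.932) and Loxl1 (2.07 ± 1.19). Below these came Mfap4 (1.6 ± 1.41 TPM), Loxl2 (0.954 ± 0.655 TPM), Fbn1 (0.666 ± 0.414 TPM), Fbln5 (0.399 ± 0.201 TPM) and Lox (0.113 ± 0.0662 TPM). Mfap5 was above Eln in 12 of 12 libraries and Fbln5 above Lox in 12 of 12. In CPM, which ignore length, Eln had the higher mean of Eln and Mfap5 in both arms. These means were 16.1 and 3.19 CPM in AngII and 13.7 and 6.90 in sham, over 8098 and 3589 exon bases. The lengths behind the deposited TPM were not examined, so the first place of Mfap5 holds for that scale only. Eln exceeded Fbln2 in 11 and Fbn1 exceeded Fbln5 in 11. The neighbours from Fbln2 down to Fbn1 kept their order in only 8 or 9 of 12 libraries, and their ranges overlapped. Raw counts ran from 8 (Lox in sham vehicle library 7) to 3169 (Eln in AngII 5 mg library 3), so Lox, at 8 to 78 counts, was the least precisely measured.

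**Figure D1:**
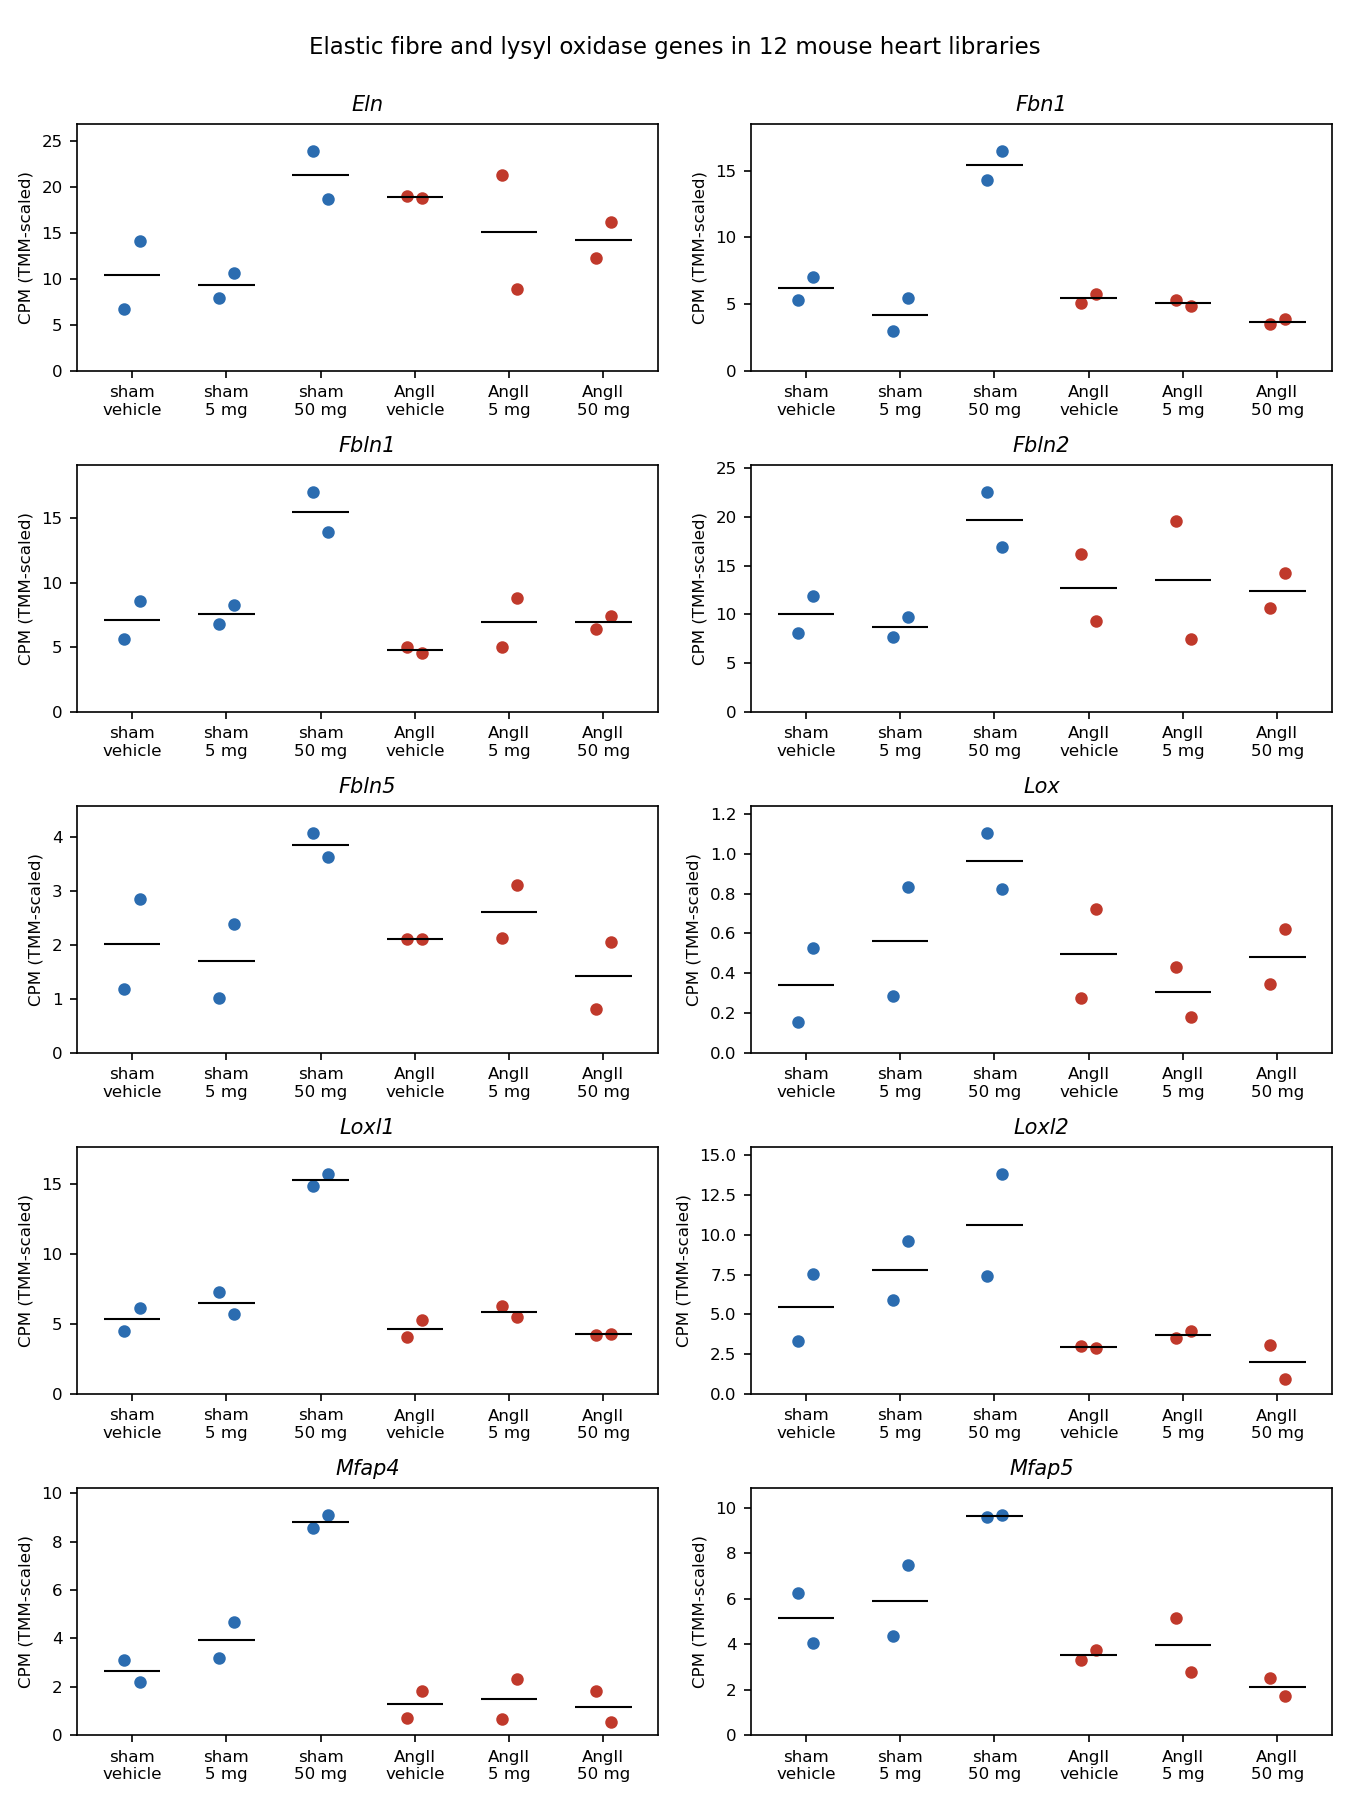
Level of each of the 10 genes (y axis, CPM after TMM scaling, from 0, a separate scale per gene) in the 6 groups (x axis, dose in mg/kg/day). Points are single libraries (blue sham, red AngII) and lines are group means (n = 2). The sham 50 mg libraries lie above all 10 other libraries for 6 genes, for example at 14.3 and 16.5 CPM for Fbn1.

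The first comparison asked how the elastic fibre genes differed between AngII and sham hearts over the 3 doses. Of the 10 genes, 6 fell in AngII and none rose, with Mfap4, Loxl2 and Mfap5 falling most and Loxl1, Fbn1 and Fbln1 less. Eln and Fbln2, the elastin chain and a fibulin, did not pass the test and had log2 fold changes above 0. Averaged over vehicle and 5 mg alone, a comparison of 8 libraries added after seeing the data, 0 of 10 passed, where 0.694% of all genes were called lower and 3.96% higher. In the fit over all doses 7.53% of the 16723 genes were called lower, 13.4% higher and 20.9% either way (edgeR's quasi-likelihood test, Benjamini-Hochberg adjusted p under 0.05). Over vehicle and 5 mg alone, Mfap4, Loxl2 and Mfap5 were at -1.25 ± 0.46, -0.98 ± 0.38 and -0.56 ± 0.28 on the log2 scale (edgeR adjusted p = 0.117, 0.13 and 0.217). Fbln1, Loxl1 and Fbn1 were at -0.35 ± 0.23, -0.17 ± 0.20 and 0.04 ± 0.23 in that comparison. The median log2 fold change over the 3 doses was -0.64 over the 10 genes and 0.10 over all genes tested.

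Mfap4, a microfibril-associated protein that binds elastin, was at 0.722 and 1.81 CPM in AngII vehicle, 0.652 and 2.30 at 5 mg and 1.83 and 0.524 at 50 mg. In sham it was at 3.09 and 2.17 CPM in vehicle, 3.19 and 4.67 at 5 mg and 8.57 and 9.09 at 50 mg. Only AngII 5 mg library 4 reached into the sham range, just above sham vehicle library 8. The difference was -1.81 ± 0.38 (log2 fold change ± SE, n = 6 a side, edgeR adjusted p = 0.00745), or 3.5-fold lower in AngII. Mfap4 shares 89 exon bases with Mapk7 on the opposite strand, and Mapk7 had more counts (3979 against 2488 over all libraries). The sources used here do not give the strand setting of the counting, so the Mfap4 value is uncertain. With both genes summed the value was -0.29 ± 0.17 (edgeR adjusted p = 0.223). Because Mapk7 holds more of the summed counts, that sum cannot show whether shared reads changed the Mfap4 value.

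Loxl2, a lysyl oxidase that also acts on basement membrane collagen, was at 2.99 and 2.88 CPM in AngII vehicle, 3.51 and 3.94 at 5 mg and 3.08 and 0.921 at 50 mg. The sham values were 3.36 and 7.56 CPM in vehicle, 5.91 and 9.62 at 5 mg and 7.41 and 13.8 at 50 mg. Sham vehicle library 7 alone lay inside the AngII range. Loxl2 fell by 1.46 ± 0.31 on the log2 scale (edgeR adjusted p = 0.00782), or 2.75-fold.

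Mfap5, a glycoprotein of fibrillin microfibrils, was at 3.31 and 3.73 CPM in AngII vehicle, 5.15 and 2.75 at 5 mg and 2.51 and 1.72 at 50 mg. Sham libraries held 6.25 and 4.06 CPM in vehicle, 4.34 and 7.48 at 5 mg and 9.58 and 9.67 at 50 mg. The arms overlapped through AngII 5 mg library 3, which exceeded 2 sham libraries. Its log2 fold change was -1.11 ± 0.23 (edgeR adjusted p = 0.00691), 2.15-fold lower in AngII.

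Loxl1, the family member that maintains elastic fibres in adult tissue, was at 4.06 and 5.29 CPM in AngII vehicle, 6.25 and 5.47 at 5 mg and 4.24 and 4.27 at 50 mg. In sham it was at 4.53 and 6.17 CPM in vehicle, 7.26 and 5.70 at 5 mg and 14.9 and 15.7 at 50 mg. The sham vehicle and AngII vehicle libraries overlapped, and both sham 50 mg libraries were above every other. Loxl1 fell by 0.73 ± 0.17 on the log2 scale (edgeR adjusted p = 0.0109).

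Fbn1, the fibrillin that forms the microfibril core, was at 5.09 and 5.76 CPM in AngII vehicle, 5.26 and 4.86 at 5 mg and 3.46 and 3.88 at 50 mg. The sham levels were 5.28 and 7.04 CPM in vehicle, 2.97 and 5.43 at 5 mg and 14.3 and 16.5 at 50 mg. Below 50 mg the arms overlapped, and the lowest of the 12 libraries was sham 5 mg library 9. Fbn1 fell by 0.66 ± 0.19 on the log2 scale over the 3 doses (edgeR adjusted p = 0.0259), whereas vehicle and 5 mg alone gave 0.04 ± 0.23 (edgeR adjusted p = 0.938).

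Fbln1, a fibulin of vessel walls and valves, was at 5.05 and 4.52 CPM in AngII vehicle, 5.05 and 8.78 at 5 mg and 6.41 and 7.45 at 50 mg. Sham hearts had 5.67 and 8.56 CPM in vehicle, 6.80 and 8.28 at 5 mg and 17.0 and 13.9 at 50 mg. The ranges overlapped outside the sham 50 mg group. Fbln1 fell by 0.62 ± 0.19 on the log2 scale (edgeR adjusted p = 0.0376). This call was kept in 2 of 12 fits that each left out 1 library, and that of Fbn1 in 6 of 12. Loxl1, Loxl2, Mfap4 and Mfap5 kept theirs in 12 of 12.

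Eln, which encodes the elastin precursor, was at 19.0 and 18.9 CPM in AngII vehicle, 21.3 and 8.93 at 5 mg and 12.3 and 16.2 at 50 mg. Sham hearts had 6.67 and 14.1 CPM in vehicle, 7.95 and 10.7 at 5 mg and 24.0 and 18.7 at 50 mg. Both AngII vehicle libraries were above both sham vehicle libraries, and at 50 mg that order was the opposite. The averaged log2 fold change was 0.33 ± 0.25 (edgeR adjusted p = 0.353). Its sign turned, to -0.15, when the share of counts outside mitochondrial and ribosomal loci was added to the fit.

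Fbln2 was at 16.2 and 9.31 CPM in AngII vehicle, 19.5 and 7.45 at 5 mg and 10.6 and 14.2 at 50 mg. Its sham levels were 8.08 and 11.9 CPM in vehicle, 7.64 and 9.77 at 5 mg and 22.5 and 16.9 at 50 mg. The spread within AngII 5 mg covered most of the values of both arms, and the averaged log2 fold change was 0.11 ± 0.25 (edgeR adjusted p = 0.796). Fbln5, a fibulin needed for elastic fibre assembly, ranged from 0.802 to 3.10 CPM in AngII (median 2.11) and from 1.02 to 4.06 in sham (median 2.61). Its log2 fold change was -0.25 ± 0.31 (edgeR adjusted p = 0.597). Lox, the founding lysyl oxidase, ranged from 0.180 to 0.721 CPM in AngII (median 0.387) and from 0.154 to 1.10 in sham (median 0.675), with a log2 fold change of -0.44 ± 0.50 (edgeR adjusted p = 0.557). Both genes' arms overlapped through most of their range.

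For none of the 10 genes did all 6 AngII libraries lie below all 6 sham libraries, an arrangement seen in 2.92% of genes tested, and none lay wholly above (4.44%). With the share of counts outside mitochondrial and ribosomal loci in the fit, 0 of 10 passed, and 0.281% of all genes were called lower. The 6 values stayed negative there, from -1.38 for Loxl2 to -0.53 for Fbln1. On log2(TPM + 1) with limma only Mfap4 passed, at -0.81 (limma adjusted p = 0.0426), where 0.182% of genes were called lower.

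**Figure D2:**
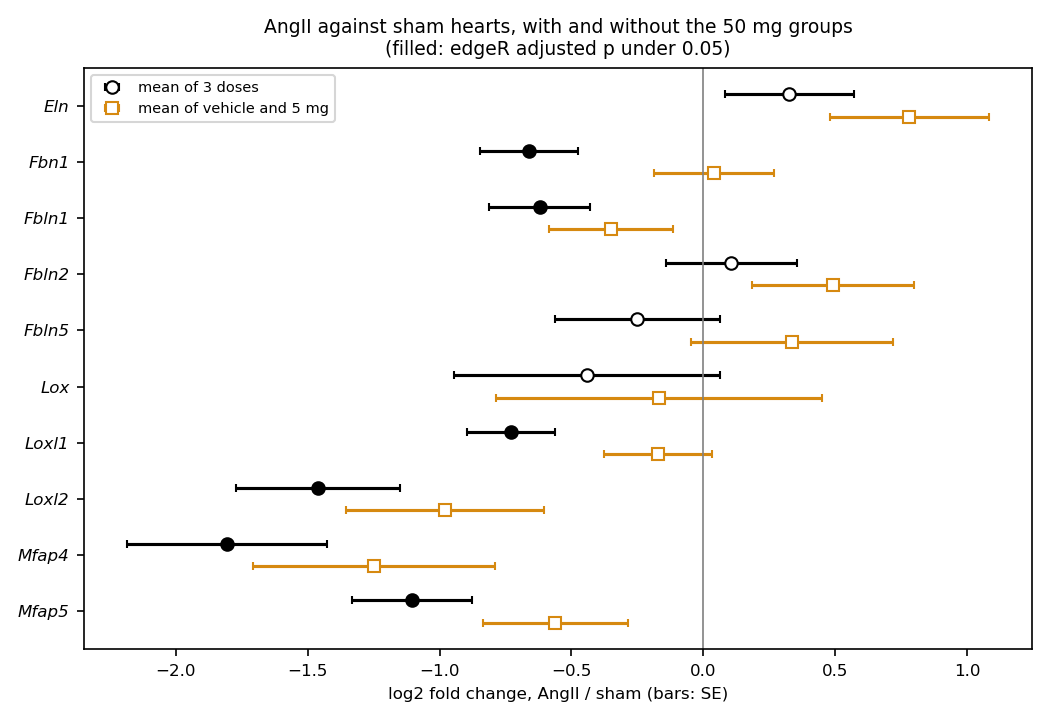
Log2 fold change of AngII over sham (x axis, bars SE) for each gene (y axis), averaged over the 3 doses (black circles) or over vehicle and 5 mg only (orange squares). Filled symbols passed the edgeR test. The 6 genes that passed are filled with all doses and none without the 50 mg groups, where Mfap4 lay at -1.25, Loxl2 at -0.98, Mfap5 at -0.56, Fbln1 at -0.35, Loxl1 at -0.17 and Fbn1 at 0.04.

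Within single doses, members passed the test between arms at 50 mg and not in vehicle or at 5 mg. In vehicle 0 of 10 passed with edgeR, with 0 at an unadjusted p under 0.05 and 0 with DESeq2 and limma-voom. Over all genes edgeR called 0.0598% and DESeq2 called 718 of 16723. The vehicle values ran from -1.06 ± 0.65 (Mfap4) to 0.86 ± 0.43 (Eln) on the log2 scale, with Fbln1 at -0.57 ± 0.33 and Loxl2 at -0.90 ± 0.53. At 5 mg 0 of 10 passed with edgeR, and 0 with DESeq2 and limma-voom. Over all genes edgeR called 0.0% and DESeq2 called 277 of 16723. Of the 10, 1 had an unadjusted p under 0.05 (Mfap4, -1.44 ± 0.65), with Loxl2 at -1.06 ± 0.53 and Eln at 0.70 ± 0.43. At 50 mg 5 of 10 fell, where 1.38% of all genes were called lower and 5.42% either way. These were Mfap4 (-2.92 ± 0.68, edgeR adjusted p = 0.0296), Loxl2 (-2.42 ± 0.56, adjusted p = 0.028), Mfap5 (-2.19 ± 0.41, adjusted p = 0.0128), Fbn1 (-2.07 ± 0.33, adjusted p = 0.00714) and Loxl1 (-1.85 ± 0.30, adjusted p = 0.00714). Summed with Mapk7, Mfap4 was at -1.49 (edgeR adjusted p = 0.0163). All 10 member values at 50 mg were below 0, with a median of -1.63 over the 10 genes and 0.03 over all genes. This count fell to 0 without AngII 50 mg library 6, to 0 without sham 50 mg library 12 and to 2 without sham 50 mg library 11, while the calls over all genes fell from 906 (231 lower) to 97 (11 lower), 26 (13 lower) and 127 (37 lower). With any 1 library left out, the log2 fold change stayed between -2.16 and -1.96 for Fbn1 and between -1.88 and -1.81 for Loxl1. It ranged from -2.49 to -1.91 for Mfap5, from -3.52 to -1.75 for Loxl2 and from -4.07 to -2.23 for Mfap4. In each fit without a 50 mg library 1 group had a lone library, assumed to vary like the other groups. Whether the arm difference changed with dose is the interaction tested below.

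Gastrodin at 50 mg/kg/day was then compared with vehicle within each arm. In sham all 10 genes had values above 0, from 0.90 ± 0.39 (Mfap5) to 1.75 ± 0.65 (Mfap4) on the log2 scale, a range of 1.87 to 3.36-fold. None of the 10 passed the edgeR test over all genes, which called 0.149% of them, 0.0837% as higher. Of the 10, 7 had an unadjusted p under 0.05, against 9.22% of all genes. The smallest adjusted p was that of Loxl1 (1.51 ± 0.29, edgeR adjusted p = 0.0761), followed by Fbn1 (1.32 ± 0.33, adjusted p = 0.221) and Fbln1 (1.12 ± 0.33, adjusted p = 0.321). DESeq2 called 2, Loxl1 (adjusted p = 6.74e-05) and Fbn1 (adjusted p = 0.00913), where it called 0.843% of genes higher, and limma-voom called 0. The median was 1.08 over the 10 genes and 0 over all genes tested.

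Of the 10, 9 had both sham 50 mg libraries above both sham vehicle libraries, an arrangement seen in 21.9% of genes. Loxl2 was the exception, with library 11 at 7.41 CPM just under sham vehicle library 8 at 7.56. For 6 genes (Fbn1, Fbln1, Fbln5, Loxl1, Mfap4 and Mfap5) the 2 sham 50 mg libraries were above the 10 others, which 6.22% of all genes showed. Mfap4 had 8.57 and 9.09 CPM there against at most 4.67 elsewhere. Loxl1 had 14.9 and 15.7 against at most 7.26. Each of the 10 genes was above its own mean over 12 libraries in both sham 50 mg libraries. That mean includes these 2 libraries, and the share of all genes with this arrangement was not computed.

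At 5 mg in sham none of the 10 passed the edgeR test (0.0179% of all genes), with 0 at an unadjusted p under 0.05. DESeq2 (32 genes in all) and limma-voom also called 0 of the 10. The values ran from -0.55 ± 0.32 (Fbn1) to 0.71 ± 0.88 (Lox), with Loxl2 at 0.51 ± 0.53 and Loxl1 at 0.27 ± 0.29. Only Mfap4 had both 5 mg libraries above both vehicle libraries (14.0% of genes).

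**Figure D3:**
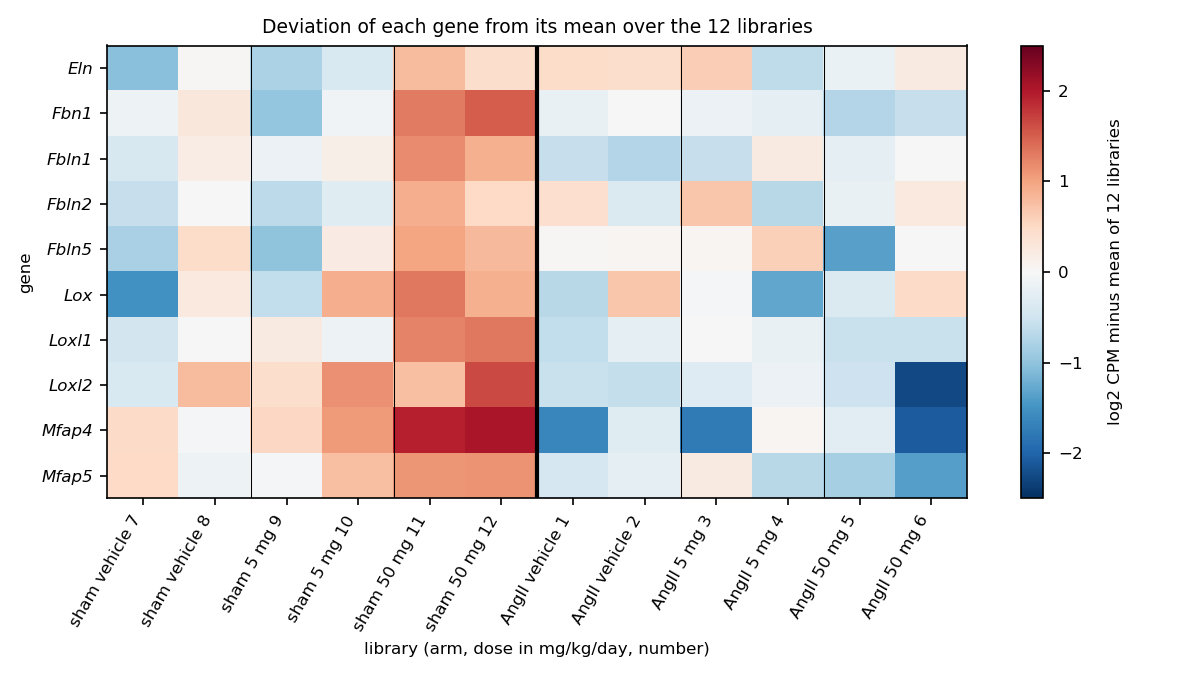
Deviation of each gene (rows) from its own mean over the 12 libraries, in log2 CPM (colour scale from blue, below, to red, above), by library (columns, sham left of the thick line). Both sham 50 mg columns are red for all 10 genes. The lowest single values are those of Loxl2 and Mfap4 in AngII 50 mg library 6.

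In AngII hearts gastrodin left no call among these genes. At 5 mg 0 of 10 passed with edgeR (0.00598% of all genes), with 0 at an unadjusted p under 0.05. DESeq2 (12 genes in all) and limma-voom also called 0 of the 10. The values there ran from -0.67 ± 0.87 (Lox) to 0.53 ± 0.33 (Fbln1), with Loxl1 at 0.33 ± 0.29. Fbln5, Loxl1 and Loxl2 had both 5 mg libraries above both vehicle libraries (11.5% of genes). At 50 mg 0 of 10 passed with edgeR (0.012% of all genes), again with 0 at an unadjusted p under 0.05. DESeq2 (15 genes in all) and limma-voom also called 0 of the 10. The range was -0.74 ± 0.39 (Mfap5) to 0.53 ± 0.33 (Fbln1), with Fbn1 at -0.56 ± 0.32. Of these 10 values, 9 were below 0, with a median of -0.27 over the 10 genes and 0.003 over all genes tested. Eln, Fbn1, Fbln5 and Mfap5 had both 50 mg libraries below both vehicle libraries (14.3% of genes), while in sham both were above (7.54% of genes had that arrangement in either orientation), and Fbln1 had both above (15.0%).

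The interaction asked whether the 50 mg effect differed between arms. All 10 values were below 0, from -1.88 ± 0.46 (Fbn1) to -0.58 ± 0.47 (Fbln1), with Loxl1 at -1.65 ± 0.41 and Mfap5 at -1.64 ± 0.55, and 0 passed with edgeR (0.0299% of all genes). The median was -1.52 over the 10 genes and -0.03 over all genes tested. Of the 10, 4 had an unadjusted p under 0.05 (6.93% of all genes). DESeq2 called Fbn1 and Loxl1 (adjusted p = 0.0152 for each), where it called 0.317% of genes lower, and limma-voom called 0. At 5 mg the interaction called 0 of 10 with edgeR (0.00598% of all genes), with 0 at an unadjusted p under 0.05. DESeq2 (14 genes in all) and limma-voom also called 0 of the 10. The values of Lox, Fbn1 and Fbln1 there were -1.38 ± 1.24, 0.45 ± 0.46 and 0.45 ± 0.47. The 50 mg comparisons in sham and between arms share the sham 50 mg libraries with the interaction.

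**Figure D4:**
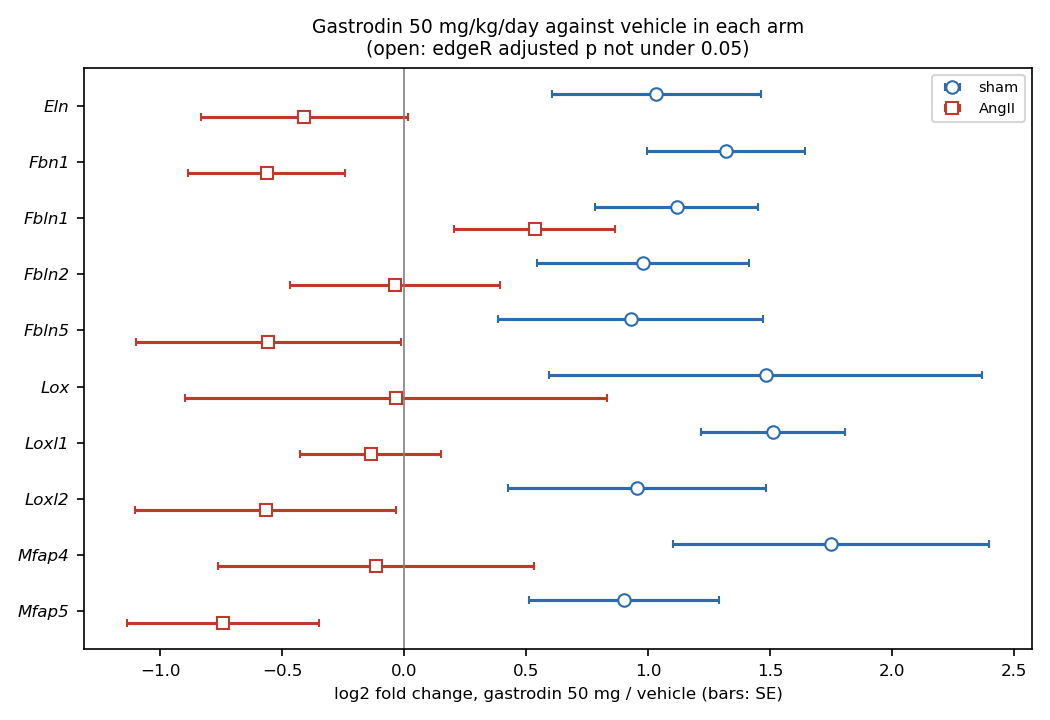
Log2 fold change of gastrodin 50 mg/kg/day over vehicle (x axis, bars SE) for each gene (y axis) in sham (blue circles) and AngII (red squares). All 10 sham values are above 0, from 0.90 to 1.75, and 9 of 10 AngII values are below 0. Open symbols did not pass the edgeR test, and no symbol is filled.

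Markers of cell types were compared in the same libraries, without a test of their link to the 10 genes. The summed level of 11 fibroblast markers that are not among the 10 genes, none of them at 0 in any library, was 624 and 655 CPM in the sham 50 mg libraries and 191 to 350 CPM in the 10 others. Of the 11, 5 fell in AngII averaged over the 3 doses (0 of 11 over vehicle and 5 mg only) and none rose. In that averaged contrast 7.53% of all genes were called lower and 13.4% higher, and over vehicle and 5 mg only 0.694% and 3.96%. With the share of counts outside mitochondrial and ribosomal loci in the fit, 0 of the 11 were called. Over all genes that fit called 261 higher and 47 lower (0.281%). The 10 macrophage markers summed to 135 and 165 CPM in sham 50 mg and 28.6 to 110 CPM elsewhere. Of these, 3 fell in AngII over the 3 doses, 0 over vehicle and 5 mg only and 0 with the share of counts in the fit. The 10 cardiomyocyte markers summed to 4165 and 4861 CPM in sham 50 mg and 5205 to 9484 CPM elsewhere. Of these, 3 rose and 1 fell in AngII over the 3 doses. None was called over vehicle and 5 mg only or with the share of counts in the fit. The edgeR test of gastrodin 50 mg against vehicle in sham called none of these fibroblast, macrophage or cardiomyocyte markers (0.149% of all genes). Of single genes 6.22% were above all 10 other libraries in sham 50 mg, and no such share was computed for sums. The part of these cell types in the member values was not tested.

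Vascular markers were called higher in AngII, and none lower. The 12 smooth muscle and pericyte markers summed to 197 to 412 CPM in AngII and 121 to 227 CPM in sham, with 7 higher and 0 lower in AngII, where 13.4% of all genes were called higher. The 12 endothelial markers summed to 121 to 291 CPM in AngII and 92.8 to 117 CPM in sham, with 8 higher and 0 lower. With the share of counts outside mitochondrial and ribosomal loci in the fit, 1 of 12 smooth muscle and 0 of 12 endothelial markers rose. Of all 16723 genes that fit called 261 higher. Over vehicle and 5 mg only 4 of each were called higher, beside 3.96% of all genes. The 6 lung genes summed to 2.14 to 11.4 CPM in AngII and 0.0559 to 2.61 CPM in sham, with 2 of 3 tested higher, and each of the 6 was at 0 in at least 1 library. The 7 cartilage and valve markers (2.13 to 3.62 CPM in AngII, 1.77 to 7.15 CPM in sham) had 2 lower and 0 higher. Mesothelial markers (8 genes, 1.07 to 4.61 and 1.06 to 3.92 CPM) had 0 of 6 called by edgeR and 1 higher by DESeq2, and atrial markers (3 genes, 0.378 to 4.06 and 0.223 to 1.47 CPM) had 1 of 3 higher. Over vehicle and 5 mg only, 0 cartilage and valve and 0 atrial markers were called, and 2 lung genes were higher. The same counts held with the share of counts in the fit. The part of all these cell types in the member values was likewise not tested.

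Other genes of the pathway were compared in the same averaged contrast, in which 13.4% of all genes were called higher and 7.53% lower. Of 24 tested partners of microfibrils and elastic fibres 8 rose and 0 fell in AngII, with a median of 0.68 (all genes 0.10). With the share of counts outside mitochondrial and ribosomal loci in the fit 1 rose, beside 261 of all 16723 genes. Over vehicle and 5 mg only 4 rose, beside 3.96% of all genes. Adamtsl4, an ADAMTS-like protein that binds fibrillin, was at 12.2 to 23.5 CPM in AngII and 4.29 to 6.95 CPM in sham. Its arms did not overlap, and 4.44% of all genes lay wholly above sham in AngII. Adamtsl4 rose by 1.66 ± 0.18 on the log2 scale (edgeR adjusted p = 0.000526). Hemicentin 1 (Hmcn1), a large matrix protein related to the fibulins, rose by 2.46 ± 0.42 (edgeR adjusted p = 0.0029). Tnxb, which encodes tenascin X, rose by 1.5 ± 0.31 (edgeR adjusted p = 0.00682). Adamts10, a protease that binds fibrillin, rose by 1.41 ± 0.31 (edgeR adjusted p = 0.00913).

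Among 18 tested genes of cross-linking and its supply 4 rose and 0 fell, beside 13.4% and 7.53% of all genes, with a median of 0.11. With the share of counts in the fit 0 were called, beside 261 higher and 47 lower over all genes. The split of the 18 genes turned to 2 higher and 5 lower with the GC trend of each library removed (median -0.33). It was 3 and 1 with centred trends and 4 and 1 with limma-voom. The 4 were P4ha2 (1.07 ± 0.19, edgeR adjusted p = 0.00418) and Plod2 (1.24 ± 0.24, adjusted p = 0.00556), which hydroxylate collagen prolines and lysines, Bmp1 (1.18 ± 0.27, adjusted p = 0.0112), the protease that activates Lox, and Plod3 (0.60 ± 0.19, adjusted p = 0.04). Loxl3 and Loxl4, the other lysyl oxidases, had values of 0.27 ± 0.26 and -0.95 ± 1.59.

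Of 14 tested genes of elastin degradation and its inhibitors 3 fell and 0 rose, beside 7.53% of all genes called lower, with a median of -0.56. They were the inhibitor Timp1 (-1.69 ± 0.42, edgeR adjusted p = 0.0148), the gelatinase Mmp2 (-0.87 ± 0.27, adjusted p = 0.0378) and the elastin-cleaving cathepsin Ctss (-1.19 ± 0.38, adjusted p = 0.0421). Timp1 was low, at 0.129 to 0.519 CPM in AngII and 0.366 to 2.30 CPM in sham. Between arms in vehicle its log2 fold change was 0.03 ± 0.70. Mmp2 was at 24.0 and 23.8 CPM in sham 50 mg, against 3.78 to 10.8 CPM in the 10 other libraries. Of all genes 6.22% showed that order. For gastrodin 50 mg against vehicle in sham Mmp2 did not pass (1.72 ± 0.47, edgeR adjusted p = 0.268). Over vehicle and 5 mg only 0 of the 14 were called, and 0 with the share of counts in the fit. Of all genes these 2 settings called 0.694% and 0.281% lower. Of 13 elastic fibre receptor genes Neu1 (1.26 ± 0.23, edgeR adjusted p = 0.00413) and Ctsa (0.73 ± 0.16, adjusted p = 0.00978) rose, which encode a sialidase and its protective protein in the elastin receptor complex. The integrin chain Itgb1 fell by 0.87 ± 0.23 (edgeR adjusted p = 0.0218). Thus 2 of 13 were higher, near the 13.4% of all genes, and 1 was lower. The list's median was 0.41, and 0 were called with the share in the fit, beside 261 higher and 47 lower over all genes.

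The 10 genes varied together to unequal degrees across the 12 libraries, which share their groups and depth. The closest pairs on log2 CPM were Eln and Fbln2 (Pearson r = 0.87), Fbn1 and Loxl1 (r = 0.83) and Loxl2 and Mfap4 (r = 0.82), with n = 12 libraries each. Eln and Mfap4 had r = -0.14. Among the 7419 genes whose mean log2 CPM reached 1, the mean profile of the members that fell was most like Fstl1 (r = 0.97), Sparc (r = 0.96), Ifitm3 (r = 0.95), Nid1 (r = 0.95) and Col6a2 (r = 0.95). The Eln profile was most like Cmtm3 (r = 0.92), Ece1 (r = 0.91), Mtmr12 (r = 0.90), Col5a1 (r = 0.89) and Col6a1 (r = 0.88). These are descriptions over the libraries, with no test.

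The genes lie on 9 chromosomes of GRCm38, all protein-coding. Only Fbln2 (chromosome 6, 91212455 to 91272540) and Mfap5 (chromosome 6, 122505845 to 122529290) share one. Eln is on chromosome 5 (134702593 to 134747323) and Mfap4 on chromosome 11 (61485431 to 61488900). Apart from Mfap4, exon overlaps with other counted genes were with genes of at most 138 counts in all, for Eln, Fbn1 and Loxl2.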

How the data were processed

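RNA of 12 heart libraries (RNeasy Plus Mini, TruSeq RNA, NovaSeq6000) was analysed. HISAT2 2.2.1, StringTie 2.1.3 and GRCm38.p6 are named in the submitters' processing notes, without their roles. The sources used here do not give the counting program, strand setting or annotation release. Raw counts of 27504 genes stand in the deposited matrix, not normalised by the authors. The deposited TPM files hold 14271 genes.

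In edgeR 4.0.16, after filterByExpr and TMM scaling, each group had its own mean in a fit to the 12 libraries (R 4.3.3), leaving 6 residual degrees of freedom (prior 6.93, biological coefficient of variation 0.476). Quasi-likelihood F-tests were 2-sided and adjusted by Benjamini-Hochberg over 16723 genes at 0.05. SE was computed as the absolute log2 fold change over the square root of F. CPM are TMM-scaled. In all, 10 contrasts were tested. The script was checked on simulated data. Every member is named. In each dose and interaction contrast those called and the 3 with the smallest p are given with their values. Of each further list the 4 called genes with the smallest p in the averaged contrast are named, or the 2 with the smallest p if fewer than 2 are called. Loxl3 and Loxl4 and the overlapping Mapk7 were added after their values were seen.

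Alternatives were DESeq2 1.42.0 (size factors, Wald test), limma 3.58.1 (voom, and trend on log2(TPM + 1) or log2(TPM + 0.1)), other filters, a covariate for the share of counts outside mitochondrial and ribosomal loci, removal of GC trends, summed overlapping genes and libraries left out. Loci of ribosomal RNA were completed after the shares of library 12 were seen. The members and lists were chosen with earlier results of these data known. Positions and overlaps are from GENCODE M21 on GRCm38, and promoter windows from RefSeq.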

Additional observations from a re-analysis of the deposited data

Results flagged for a closer look

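For 4 genes the 50 mg libraries lay on opposite sides of vehicle in the 2 arms: both sham libraries were above sham vehicle and both AngII libraries below AngII vehicle. None of the 4 passed the edgeR test of gastrodin 50 mg against vehicle in either arm. The differences of the effects, AngII minus sham on the log2 scale, were -1.44 for Eln, -1.88 for Fbn1, -1.48 for Fbln5 and -1.64 for Mfap5. Of all genes tested 7.54% showed such an arrangement. The interaction test of edgeR did not pass for any of them (adjusted p = 0.692, 0.336, 0.763 and 0.609). Over the 12 fits that each left out 1 library the Fbn1 value ran from -2.11 to -1.69, and its adjusted p from 0.207 to 0.921. Groups of 2 libraries were too small for a check of single outlying libraries.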

How the results depend on the processing

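No paired analysis was possible because the libraries carry the numbers 1 to 12, none shared between groups. Counts of members called are given first. In AngII against sham over the 3 doses the count was 6, and it was 0 over vehicle and 5 mg only, 0 with the share of counts outside mitochondrial and ribosomal loci as a covariate, and 1 in each of the 3 TPM fits. Leaving out 1 library gave 4 to 6. At 50 mg the count of 5 became 3 without libraries 4 and 12 together, 0 in each of the 3 TPM fits, and 0 to 6 with 1 library left out. For gastrodin 50 mg in sham the count of 0 became 2 with DESeq2, 3 with no filter on low counts, 2 with only the groups compared, 1 with the covariate, and 0 to 1 with 1 library left out, being 1 without AngII 5 mg library 3 or 4. Calls over all genes there went from 25 to 281 with DESeq2, 354 with no filter, 114 with only the groups compared, 62 with the covariate and 51 without library 3 or 4. The interaction at 50 mg gave 2 with DESeq2, with 114 calls over all genes against 5. The other 251 counts under an alternative were within 1.5 times of their main count, 0 included.

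Alternatives were run for all 10 members in the averaged contrast, between arms at 50 mg, for 50 mg in sham and in the 50 mg interaction, and for the 3 members with the smallest p in each other contrast. Signs turned in 19 of these 1550 values. In the averaged contrast, on the log2 scale, they were with the covariate -0.15 for Eln and -0.48 for Fbln2, and with the GC trend removed -0.26 for Eln and -0.45 for Fbln2 (-0.13 with centred trends). Over vehicle and 5 mg only they were 0.0415 for Fbn1 and 0.34 for Fbln5. With TPM they were 0.0862 and 0.276 for Fbln5 and 0.014 and 0.072 for Lox (pseudocounts 1 and 0.1). With 1 library left out the ranges that crossed 0 were -0.161 to 0.283 for Fbln2 (below 0 without library 1 or 3) and -0.513 to 0.00932 for Fbln5 (above 0 without library 8). Between arms at 5 mg Eln ranged from -0.0571 (without library 3) to 1.19, and Mfap4 was 0.0171 with overlapping genes summed. Lox for 5 mg in AngII ranged from -1.47 to 0.162 (without library 2). The 5 mg interaction of Fbln1 ranged from -0.00383 (without library 4) to 0.774, and was -0.00388 without libraries 4 and 12. None of these 19 passed the test in either fit except Fbn1, which passed over the 3 doses.

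The cause of these changes was not tested, and some settings also hold fewer libraries or genes. Over all genes the averaged contrast had 2241 higher and 1260 lower calls. Removing each library's GC trend gave 1326 and 2950 and moved the median of all genes from 0.10 to -0.21, where the median of the 10 members was -1.04. That alternative as first run did not centre the trends. A centred version, added after its split was seen, gave 2015 and 1095. Both called 6 members lower. The covariate gave 261 and 47, vehicle and 5 mg only 662 and 116. TPM with a pseudocount of 1 gave 1227 and 26, with 0.1 gave 2380 and 36, and with a minimum of 1 TPM gave 1718 and 21, at all-gene medians of 0.22, 0.51 and 0.39. With no filter on low counts the split was 2899 and 1478 at a median of 0.29. Leaving out 1 library gave 1611 (without library 1) to 5167 calls (without library 4). Lox, with 8 to 78 counts a library, had an SE of 0.86 to 0.89 in the 50 mg contrasts within or between arms.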
